A study of Mus musculus with 12 samples.

Results

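Collagens are the proteins that give connective tissue its tensile strength, and each collagen molecule is assembled from 3 alpha chains, which are copies of 1 gene product in some types and products of different genes in others. The genes described here were the protein-coding rows of the count table whose symbol names a collagen alpha chain, that is Col followed by a type number, the letter a and a chain number. There were 44 such genes among 55573 rows, of which 21980 were protein-coding. The symbol rule used no measured values, but collagens were chosen with earlier results of these data known. The libraries came from fibroblasts of C57BL/6 mouse embryos at embryonic day 13.5 (MEFs), cells that make connective tissue. The cells of all groups carried i4F, a cassette from which doxycycline switches on Oct4, Sox2, Klf4 and Myc (OSKM), the transcription factors used to reprogram cells to pluripotency. MEF denotes cells in iPSC medium without doxycycline, MEF+B12 the same cells with 2 µM vitamin B12, OSKM cells with 1 µg/ml doxycycline, and OSKM+B12 cells with both, and RNA was taken after 72 h of these treatments. Each of the 4 groups had 3 libraries, 1 from each of clones 1, 2 and 3, where a clone is the cell culture from 1 embryo. No group had doxycycline without the factors, so effects of the drug and of OSKM cannot be told apart, and the library titles bear a later year for clone 1 than for the other two clones.

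Collagen chains wind around each other in a triple helix in which glycine recurs at a fixed spacing, and many of the residues between are proline. The fibrillar types I, II, III, V, XI, XXIV and XXVII form or seed the fibrils of skin, bone and cartilage, and FACIT collagens sit on the surface of those fibrils. Type IV makes the network of basement membranes, type VI the beaded filaments around cells, type VII the anchoring fibrils under epithelia, and types VIII and X hexagonal short chain networks. Types XV and XVIII, the multiplexins, lie at basement membranes, and types XIII, XVII, XXIII and XXV span the plasma membrane. Fibroblasts are the main producers of types I, III, V and VI in connective tissue, and loss of fibroblast expression is among the early events of reprogramming to pluripotency.

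The 12 libraries held 56971244 to 79236795 counts. Of the 4 factors Pou5f1 and Sox2 separated the groups and Klf4 and Myc did not, in counts that do not tell the cassette from the cell's own genes. Pou5f1, which encodes Oct4, was at 0 to 0.468 CPM (counts per 1000000 counts of a library) in the 6 libraries without doxycycline and at 2.34 to 20.7 CPM in the 6 with it. The clones were induced to different levels. Pou5f1 was at 19.3, 18.5 and 2.86 CPM in OSKM clones 1, 2 and 3 and at 20.7, 18.96 and 2.34 CPM in OSKM+B12, and Sox2 was likewise lowest in clone 3 in both induced groups. Myc was at 53.4, 43.97 and 20.05 CPM in OSKM and 50.4, 43.6 and 21.9 CPM in OSKM+B12, so that clone 3 lay within the uninduced range of 16.4 to 23.3 CPM. Klf4 was at 118 to 143 CPM in the uninduced and 108 to 123 CPM in the induced libraries. Pseudogenes took 5.59% to 6.19% of counts in the uninduced and 5.86% to 6.87% in the induced libraries, and the highest value was that of OSKM clone 1.

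The chains covered a wide range of levels, and 3 of them stood above the rest. Levels between genes were compared as CPM per kb of the principal transcript, averaged over the 12 libraries. Col3a1, the chain of type III collagen, was at 6464, and Col1a1 and Col1a2, the chains of type I collagen, were at 5829.9 and 5509. The next were Col6a2 (526), Col5a2 (512), Col5a1 (487), Col6a1 (486) and Col12a1 (211), which encode chains of types VI, V and XII. These 8 were the highest by the length of the principal transcript and also by the length of all exons together. At the other end, Col4a3, a chain of the specialised basement membranes of kidney and lung, was at 0.0218 and had 4 to 18 counts per library. Col19a1, with 2 to 22 counts, was the single member that did not pass the filter on low counts, so 43 of the 44 entered the tests. Between 35 and 39 members reached 1 CPM in a library.

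**Figure D1:**
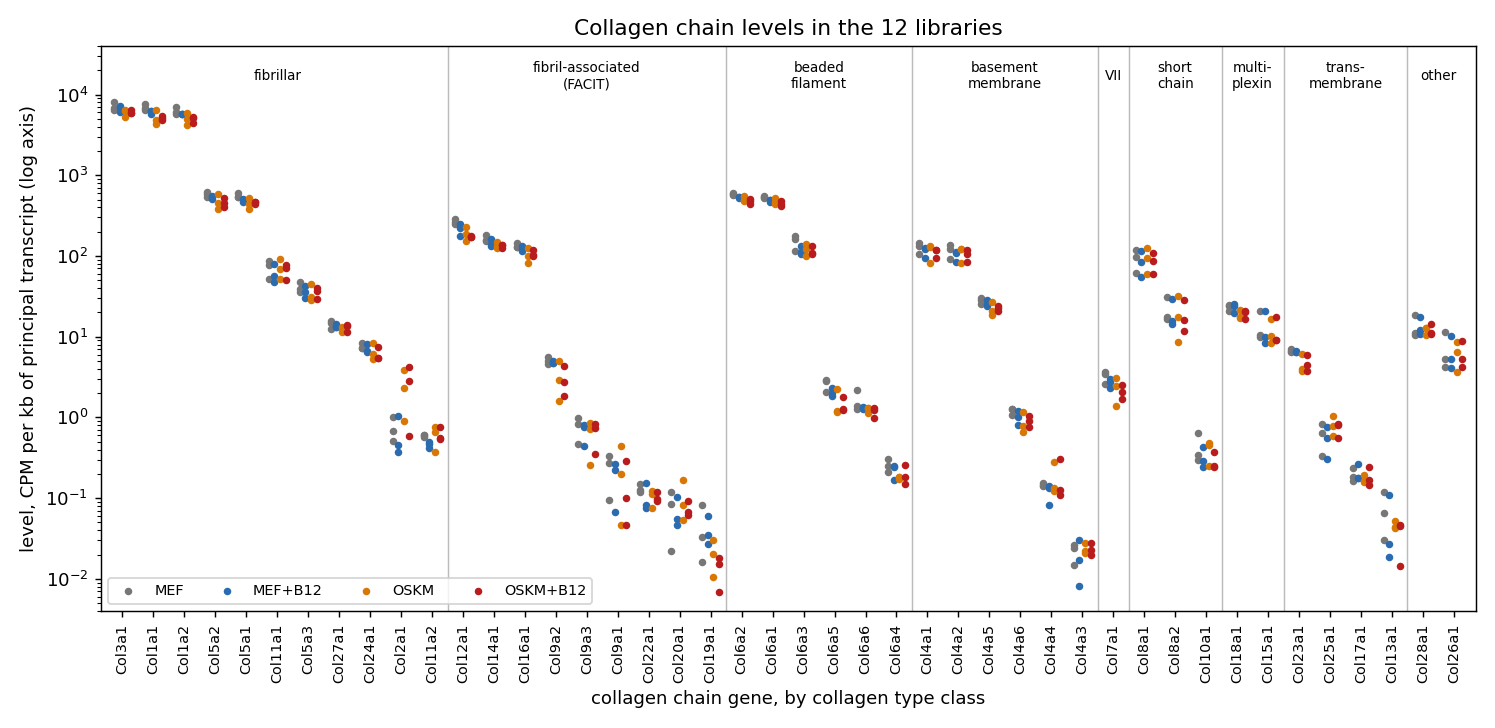
Level of each of the 44 collagen chains in each of the 12 libraries, as CPM per kb of principal transcript on a log axis, with genes grouped by collagen type class and coloured by group. Col3a1, Col1a1 and Col1a2 lie above all others, and the 4 groups of libraries overlap or lie close for most chains relative to the distance between chains.

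Several chains that are built into the same molecule were present in steady proportions. Per kb, the ratio of Col1a1 to Col1a2 lay between 0.978 and 1.13 in the 12 libraries, that of Col6a1 to Col6a2 between 0.906 and 0.945, and that of Col4a1 to Col4a2 between 1.01 and 1.15. Col6a1 and Col6a2 varied least against each other, with a highest ratio 1.04 times the lowest. The ratio of Col6a3, the largest of the common type VI chains, to Col6a1 was lower and wider, from 0.215 to 0.321. The ratio of Col3a1 to Col1a1 ran from 0.929 to 1.28. The ratio of Col4a4 to Col4a3 ran from 2.68 to 17.3, which rests on the few counts of Col4a3. The type IV genes lie head to head in the mouse genome (GRCm38). The principal transcripts of Col4a1 (minus strand) and Col4a2 (plus strand) start on chromosome 8 at 11312826 and 11312805, and those of Col4a4 and Col4a3 on chromosome 1 at 82586849 and 82586976. Col4a6 and Col4a5 lie on chromosome X with starts 1334 bases apart, and differed in level, at 0.995 and 24.6 CPM per kb. Sequence shared with other genes was small, since at most 4.31% of the 31-base words of a member (Col6a6) occurred in transcripts of another gene, with 3.98% for its neighbour Col6a5.

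The stretch before the start of 4 members is given. Col3a1 is 1 of the most abundant fibrillar chains and did not pass for induction in edgeR. Col1a2 (fibrillar) and Col23a1 (transmembrane) were lower after induction, and Col25a1 (transmembrane) was higher. The sequences are on the plus strand of GRCm38.p6 from RefSeq, read 5′ to 3′, and end before the RefSeq start or the start of the principal transcript, whichever comes first. Col1a2 and Col25a1 each have a further annotated transcript that starts upstream of the printed stretch. Capitals mark each match on either strand to the TATA box, spelled TATAAA, the CCAAT box, spelled CCAAT, the GC box that Sp1 binds, spelled GGGCGG, the E box spelled CACGTG, and the octamer site of Oct4 and other POU factors, spelled ATGCAAAT. No pair of these motifs overlapped in the printed stretches.
Col3a1, chr1:45311288-45311537: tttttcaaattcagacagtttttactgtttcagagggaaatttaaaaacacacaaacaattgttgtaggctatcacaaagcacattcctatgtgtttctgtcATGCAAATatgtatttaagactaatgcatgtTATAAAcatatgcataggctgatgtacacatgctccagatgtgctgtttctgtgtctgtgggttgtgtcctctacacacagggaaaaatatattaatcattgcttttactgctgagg
Col1a2, chr6:4505368-4505492: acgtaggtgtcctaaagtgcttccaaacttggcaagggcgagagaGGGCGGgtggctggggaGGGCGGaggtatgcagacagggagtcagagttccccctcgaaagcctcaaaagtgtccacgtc
Col23a1, chr11:51289670-51289919: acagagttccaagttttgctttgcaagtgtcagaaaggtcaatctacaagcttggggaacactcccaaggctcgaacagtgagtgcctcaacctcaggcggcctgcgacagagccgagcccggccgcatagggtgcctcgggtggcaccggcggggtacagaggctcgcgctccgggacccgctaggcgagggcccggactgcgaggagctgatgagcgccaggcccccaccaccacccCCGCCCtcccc
Col25a1, chr3:130180595-130180844: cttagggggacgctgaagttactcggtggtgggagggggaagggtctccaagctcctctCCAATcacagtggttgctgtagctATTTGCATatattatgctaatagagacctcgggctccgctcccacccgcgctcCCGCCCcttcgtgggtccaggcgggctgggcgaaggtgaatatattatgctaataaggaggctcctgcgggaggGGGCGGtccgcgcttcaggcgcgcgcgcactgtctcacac
The Col3a1 stretch had a GC content of 35.2%, against 59.2%, 66.0% and 60.4% for Col1a2, Col23a1 and Col25a1. RefSeq windows of 300 bases (250 before and 50 after the start) were matched by symbol for 35 of the 44 members, in 38 windows. GGGCGG was in 23 of the 38 (60.5%) and in 35.7% of all 32851 windows. CCAAT was in 34.2% of the members' windows and 37.4% of all, TATAAA in 13.2% and 13.6%, and CACGTG in 0 and 7.15%. The octamer ATGCAAAT was in 2 of the 38, those of Col3a1 and Col25a1 (5.26%), and in 1.74% of all windows. Both members with the octamer are among the 4 printed, so the printed stretches show it more often than the members' windows do. A match is a run of letters and was not tested as a binding site.

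Collagen chains took between 9.71% and 14.3% of all counts in a library. The share was 13.0%, 14.3% and 12.8% in MEF clones 1, 2 and 3, with a mean of 13.4% ± 0.822 (SD, n = 3). It was 12.8%, 12.1% and 12.1% in MEF+B12, with a mean of 12.3% ± 0.380 (SD, n = 3). It was 9.71%, 10.9% and 12.5% in OSKM (11.04% ± 1.41, SD, n = 3) and 10.8%, 11.2% and 11.3% in OSKM+B12 (11.1% ± 0.259, SD, n = 3). Every induced library was below the uninduced library of its own clone and B12 level. OSKM minus MEF was -3.27 percentage points in clone 1, -3.41 in clone 2 and -0.287 in clone 3, and OSKM+B12 minus MEF+B12 was -1.92, -0.922 and -0.747 points. Col1a1, Col1a2 and Col3a1 together made up 8.02% to 12.04% of the counts, and the other 41 chains 1.69% to 2.27%. In these bulk libraries, fewer fibroblasts and less collagen RNA per cell cannot be told apart.

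**Figure D2:**
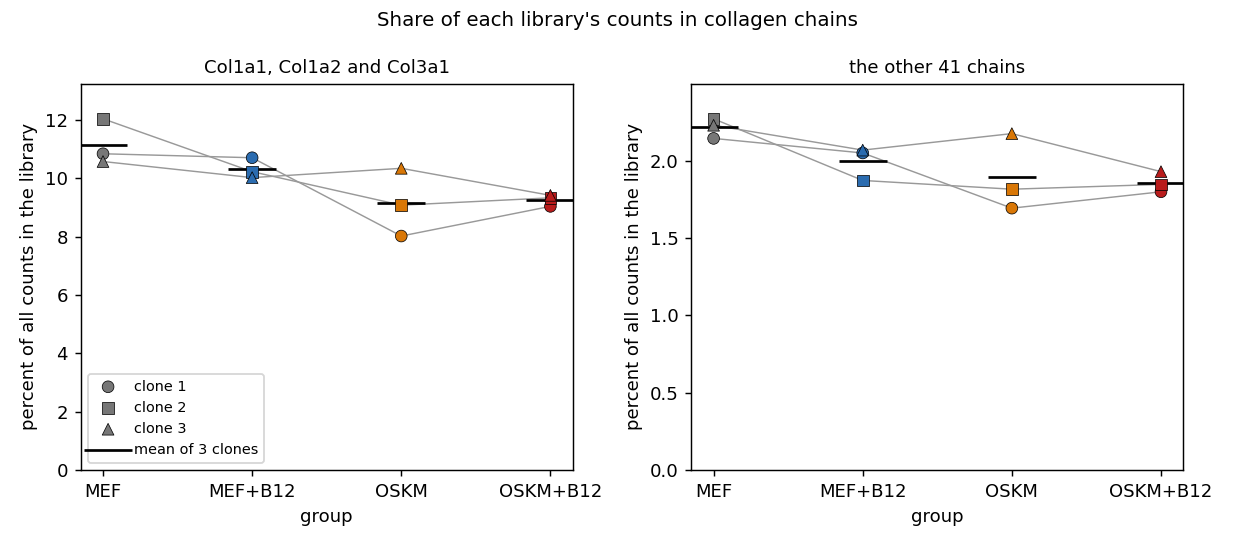
Percent of each library's counts in Col1a1, Col1a2 and Col3a1 (left) and in the other 41 chains (right), by group, with points joined by clone and a bar at the mean of 3 clones; both axes start at 0. Clones 1 and 2 lie lower in OSKM than in MEF in both panels, and clone 3 stays close to its MEF value.

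Induction of the factors was accompanied by lower levels of most collagen chains. Without B12, 38 of the 43 tested chains were lower in OSKM than in MEF, with a median log2 fold change of -0.25 against -0.0081 over all 19174 genes tested. None passed an adjusted p of 0.05 in edgeR, and 0.0730% of all genes did. An unadjusted p under 0.05 was seen for 27 chains and for 3641 of the 19174 genes. DESeq2 called 11, all of them lower (2.57% of all genes), and edgeR without a filter on low counts called 15 (2.06%). With B12, 33 of the 43 were lower, with a median of -0.13. Of these tests 0 passed in edgeR (0.104% of all genes), 4 in DESeq2 (2.19%) and 5 without the filter (1.95%). Before adjustment, p in edgeR was below 0.05 for 13 chains and for 2854 of the 19174 genes tested. When induction was averaged over both B12 levels, 14 of the 43 passed, 12 lower and 2 higher. Of all genes tested 9.73% passed, 5.26% lower and 4.46% higher, and DESeq2 called 20 chains (12.9% of all genes), these 14 among them. The 12 chains that fell were Col1a1, Col1a2, Col5a2 and Col24a1 (fibrillar), Col9a2, Col12a1 and Col16a1 (FACIT), Col6a2 and Col6a5 (beaded filament), Col7a1, Col18a1 and Col23a1, and the 2 that rose were Col2a1 and Col25a1. These 14 all had the same sign in all 6 pairs of libraries of 1 clone and B12 level. In all, 14 tested chains were lower in every one of the 6 pairs (8.26% of all genes were) and 2 were higher in every one (7.37% of all genes).

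As over all genes, few calls were left without clone 1 or clone 2. Without clone 1 none of the 14 chains passed in edgeR, and 0.0524% of all genes did. In that fit 18 of the 44 chains tested had an unadjusted p under 0.05. Without clone 2 none passed either, with 17 at an unadjusted p under 0.05 and 0.0155% of all genes. All 14 kept their sign in both, which their same sign in all 6 pairs had made near certain, so this is no added support. The median of their log2 fold changes relative to the full fit was 80.3% and 86.4%. Without clone 3 21 chains passed, these 14 among them, and 15.9% of all genes. Without the OSKM library of clone 1 8 of the 14 passed (3.95% of all genes), namely Col2a1, Col6a5, Col7a1, Col9a2, Col18a1, Col23a1, Col24a1 and Col25a1. The averaged comparison counts 6 pairs from 3 embryos, and when the libraries of a clone were summed so that each embryo gave 1 pair, 0 chains passed in edgeR, 23 had an unadjusted p under 0.05 and 5 of 19968 genes (0.0250%) passed. Without the clone as a block 0 chains and 0 of all genes passed in edgeR, with 16 chains at an unadjusted p under 0.05. The counts over all genes at an unadjusted p are not given here for these alternative fits. All 14 kept their sign in these fits too, which use the same libraries and could hardly change it. The median was 100.2% and 96.6% of the full log2 fold change. The median difference over the 43 chains was -0.28 in clone 1, -0.23 in clone 2 and -0.059 in clone 3, smallest in clone 3, where Pou5f1, Sox2 and Myc were lowest after induction, and the part of these factors in the differences was not tested.

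**Figure D3:**
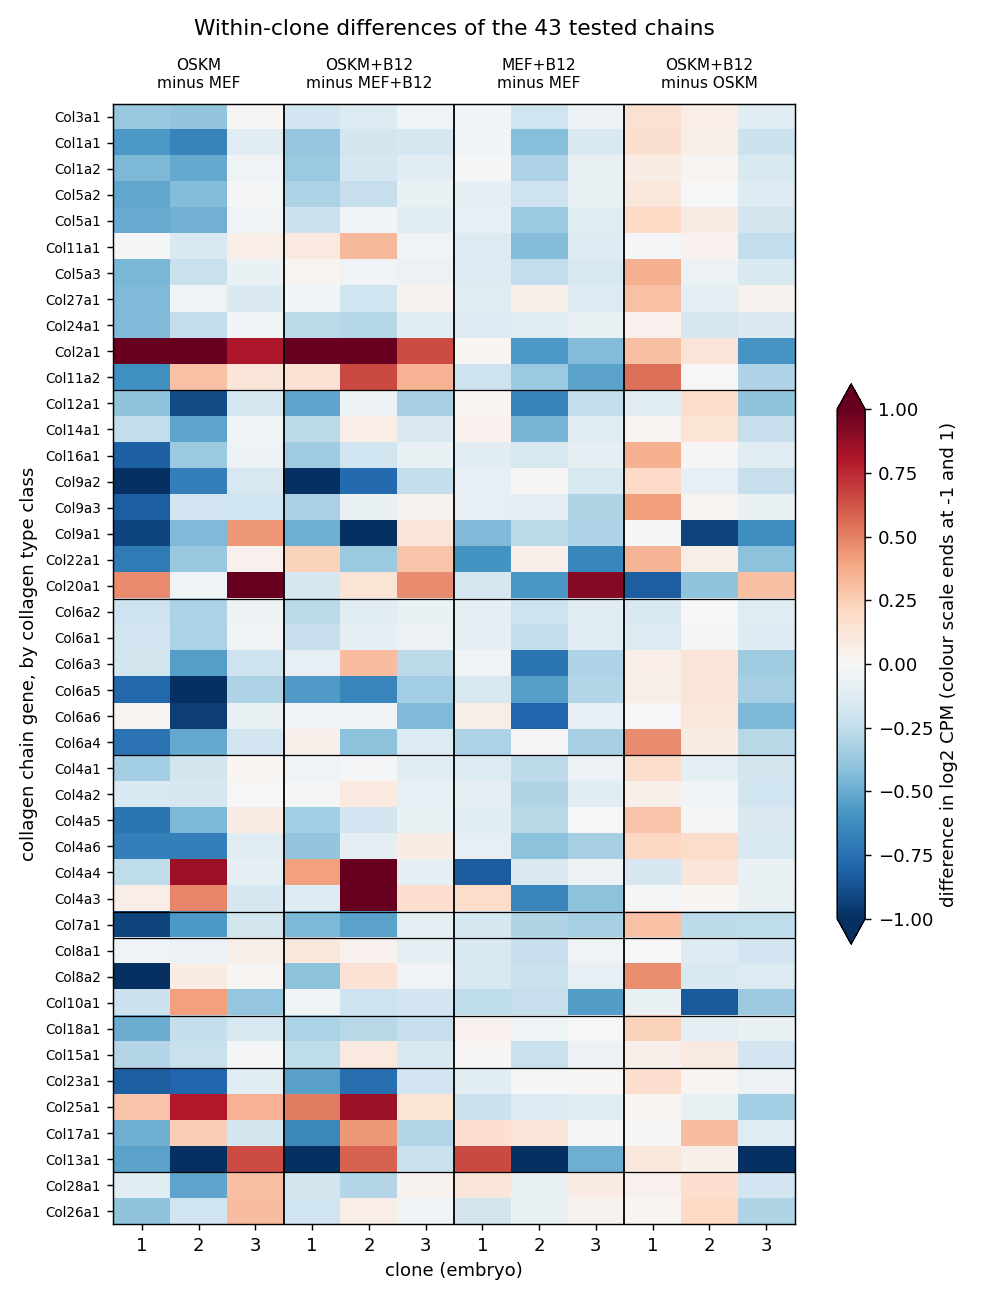
Difference in log2 CPM between 2 libraries of the same clone for each of the 43 tested chains, with columns for clones 1 to 3 in 4 comparisons; blue is lower and red higher in the first-named group, and colours end at -1 and 1. The induction columns of clones 1 and 2 are mostly blue, those of clone 3 are pale, and Col2a1 and Col25a1 are red in all 6 induction columns.

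The chains of type I collagen, the main protein of skin, tendon and bone, fell in parallel. Col1a1 was at 37882, 45818 and 40682 CPM in MEF clones 1, 2 and 3 and at 37145, 34064 and 36565 CPM in MEF+B12. It was at 25440.0, 28777 and 37709 CPM in OSKM and at 28378, 29942 and 32457 CPM in OSKM+B12. Clones 1 and 2 were lower in each induced library than in any uninduced library, while OSKM clone 3 overlapped the uninduced range. The log2 fold change was -0.35 ± 0.080 (SE; adjusted p = 0.028 in edgeR). Col1a2 was at 30885, 37800.1 and 32477 CPM in MEF and 30686, 30555 and 30930.2 CPM in MEF+B12. It was at 22608, 26547 and 31699 CPM in OSKM and 23769, 27032 and 28550.4 CPM in OSKM+B12, a log2 fold change of -0.28 ± 0.070 (adjusted p = 0.036 in edgeR). Here too clone 3 without B12 lay among the uninduced libraries. Col3a1, whose type III fibrils accompany type I in skin and vessels, was at 34079 to 45344 CPM in the uninduced and 29424 to 36089 CPM in the induced libraries, which overlap, and its log2 fold change of -0.19 ± 0.063 did not pass (adjusted p = 0.085 in edgeR; DESeq2 called it).

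Of the 3 chains of type V, which are built into type I fibrils and limit their diameter, only Col5a2 passed in edgeR. Col5a2 was at 3592, 4094 and 3859 CPM in MEF and 2511, 3028 and 3832 CPM in OSKM. It was at 3373, 3551 and 3659.5 CPM in MEF+B12 and 2712, 3026 and 3496 CPM in OSKM+B12, with a log2 fold change of -0.26 ± 0.065 (adjusted p = 0.034 in edgeR). Clone 3 without B12 was level between the states. Col5a1 had a log2 fold change of -0.23 ± 0.068 and narrowly missed the threshold (adjusted p = 0.059 in edgeR). It was lower in all 6 pairs, and DESeq2 called it. Col5a3 had -0.13 ± 0.059 (adjusted p = 0.18 in edgeR). Col24a1, a minor fibrillar chain of developing bone and cornea, was at 46.7 to 60.4 CPM in the uninduced and 37.7 to 59.2 CPM in the induced libraries and fell by a log2 fold change of -0.22 ± 0.049 (adjusted p = 0.026 in edgeR). Of the other fibrillar members only Col2a1 passed.

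Among the beaded filament chains Col6a5, a minor chain that can take the place of Col6a3 in type VI collagen, had the larger response. Col6a5 was at 19.2, 27.4 and 26.1 CPM in MEF and 17.2, 18.7 and 21.3 CPM in MEF+B12. It was at 11.1, 10.8 and 21.1 CPM in OSKM and 11.6, 11.9 and 16.7 CPM in OSKM+B12. The induced libraries of clones 1 and 2 lay between 10.8 and 11.9 CPM, below every uninduced library, and OSKM clone 3 lay within the uninduced range. The log2 fold change was -0.66 ± 0.11 (adjusted p = 0.016 in edgeR). Col6a2, one of the common chains, fell less, with a log2 fold change of -0.17 ± 0.044 (adjusted p = 0.041 in edgeR), from 2041 to 2361 CPM to 1760.3 to 2204 CPM, ranges that overlap. Its partner Col6a1 had -0.15 ± 0.045 and did not pass in edgeR (adjusted p = 0.054 in edgeR), although DESeq2 called it. Col6a3 was at 963 to 1601 CPM in the uninduced and 902 to 1261 CPM in the induced libraries and had -0.17 ± 0.085 (adjusted p = 0.24 in edgeR).

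The FACIT chain Col9a2, a component of type IX collagen that decorates cartilage fibrils, had the largest fall of any chain at or above 1 CPM. It was at 14.5, 13.5 and 16.5 CPM in MEF and 13.7, 13.7 and 14.8 CPM in MEF+B12. It was at 4.73, 8.40 and 14.8 CPM in OSKM and 5.41, 7.94 and 12.6 CPM in OSKM+B12. Clone 1 dropped to the lowest values, clone 2 to intermediate ones and clone 3 stayed within or just under the uninduced range. The log2 fold change was -0.78 ± 0.17 (adjusted p = 0.025 in edgeR). Col12a1, a large FACIT of tendon and ligament fibrils, was at 2836, 3261 and 2996 CPM in MEF and 2150.5, 1755 and 2652 CPM in OSKM. With B12 it was at 2869.6, 2054 and 2533 CPM in MEF+B12 and 1995, 1982 and 2008 CPM in OSKM+B12, and it fell by a log2 fold change of -0.40 ± 0.092 (adjusted p = 0.028 in edgeR). Its groups overlap, since MEF+B12 of clone 2 was as low as the induced libraries. Col16a1, the third FACIT called, was outside the naming rule and had -0.31 ± 0.083 (adjusted p = 0.044 in edgeR).

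Col7a1, the chain of the fibrils that anchor epidermis to dermis, was at 23.9, 33.8 and 31.7 CPM in MEF and 21.1, 27.4 and 25.2 CPM in MEF+B12. It was at 12.6, 22.7 and 27.96 CPM in OSKM and 15.4, 18.9 and 23.5 CPM in OSKM+B12. Within each clone both induced libraries were below the uninduced library of the same B12 level, while the groups overlapped across clones. The log2 fold change was -0.45 ± 0.095 (adjusted p = 0.024 in edgeR). Col18a1, whose C-terminal fragment is endostatin, was at 95.4 to 121 CPM in the uninduced and 78.5 to 103 CPM in the induced libraries. Its fall of -0.29 ± 0.049 (adjusted p = 0.017 in edgeR) was similar in the 3 clones, at -0.41, -0.26 and -0.20 for clones 1, 2 and 3.

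Col23a1, a transmembrane collagen, was the single chain whose 6 induced libraries all lay below its 6 uninduced ones, as they did for 0.370% of all genes tested. It was at 39.8, 36.7 and 37.8 CPM in MEF and 36.9, 36.4 and 38.1 CPM in MEF+B12. It was at 22.5, 21.2 and 34.95 CPM in OSKM and 25.2, 21.5 and 33.5 CPM in OSKM+B12. The uninduced libraries were within 36.4 to 39.8 CPM across embryos, and clones 1 and 2 were well below that after induction while clone 3 was just below. The log2 fold change was -0.53 ± 0.092 (adjusted p = 0.017 in edgeR).

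Col2a1, the chain of cartilage type II collagen, went the other way. It was at 5.21, 3.49 and 2.62 CPM in MEF and 5.28, 2.34 and 1.93 CPM in MEF+B12. It was at 11.8, 19.6 and 4.60 CPM in OSKM and 14.6, 21.5 and 3.04 CPM in OSKM+B12. Clone 2 reached the highest level, clone 1 was next, and clone 3 after induction lay within the uninduced range of the other clones. The log2 fold change was 1.68 ± 0.29 (adjusted p = 0.017 in edgeR), and even the highest level was far below those of the type I chains. Cartilage markers did not rise as a group. Of the 6 tested, Cnmd (chondromodulin) rose (1.70 ± 0.39, adjusted p = 0.028 in edgeR), Sox9, the transcription factor of chondrocytes that drives Col2a1, fell (-0.18 ± 0.048, adjusted p = 0.04), and Acan, Matn3, Hapln1 and Comp did not pass. Matn1 and Snorc were below the filter, and the summed level of the list was 36.7 to 49.97 CPM in the uninduced and 30.8 to 54.9 CPM in the induced libraries. Col25a1, a transmembrane chain of neurons and muscle, was at 1.70, 0.870 and 2.15 CPM in MEF and 1.46, 0.792 and 1.97 CPM in MEF+B12. It was at 2.08, 1.54 and 2.74 CPM in OSKM and 2.10, 1.46 and 2.17 CPM in OSKM+B12, and rose by a log2 fold change of 0.47 ± 0.12 (adjusted p = 0.032 in edgeR). The clones kept their order, with clone 2 lowest in every group, so the groups overlapped although each pair was higher after induction. Col4a4, a basement membrane chain, had a log2 fold change of 0.35 ± 0.19 and did not pass (adjusted p = 0.27 in edgeR), with 2.85 and 3.10 CPM in clone 2 after induction and at most 1.57 CPM elsewhere.

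**Figure D4:**
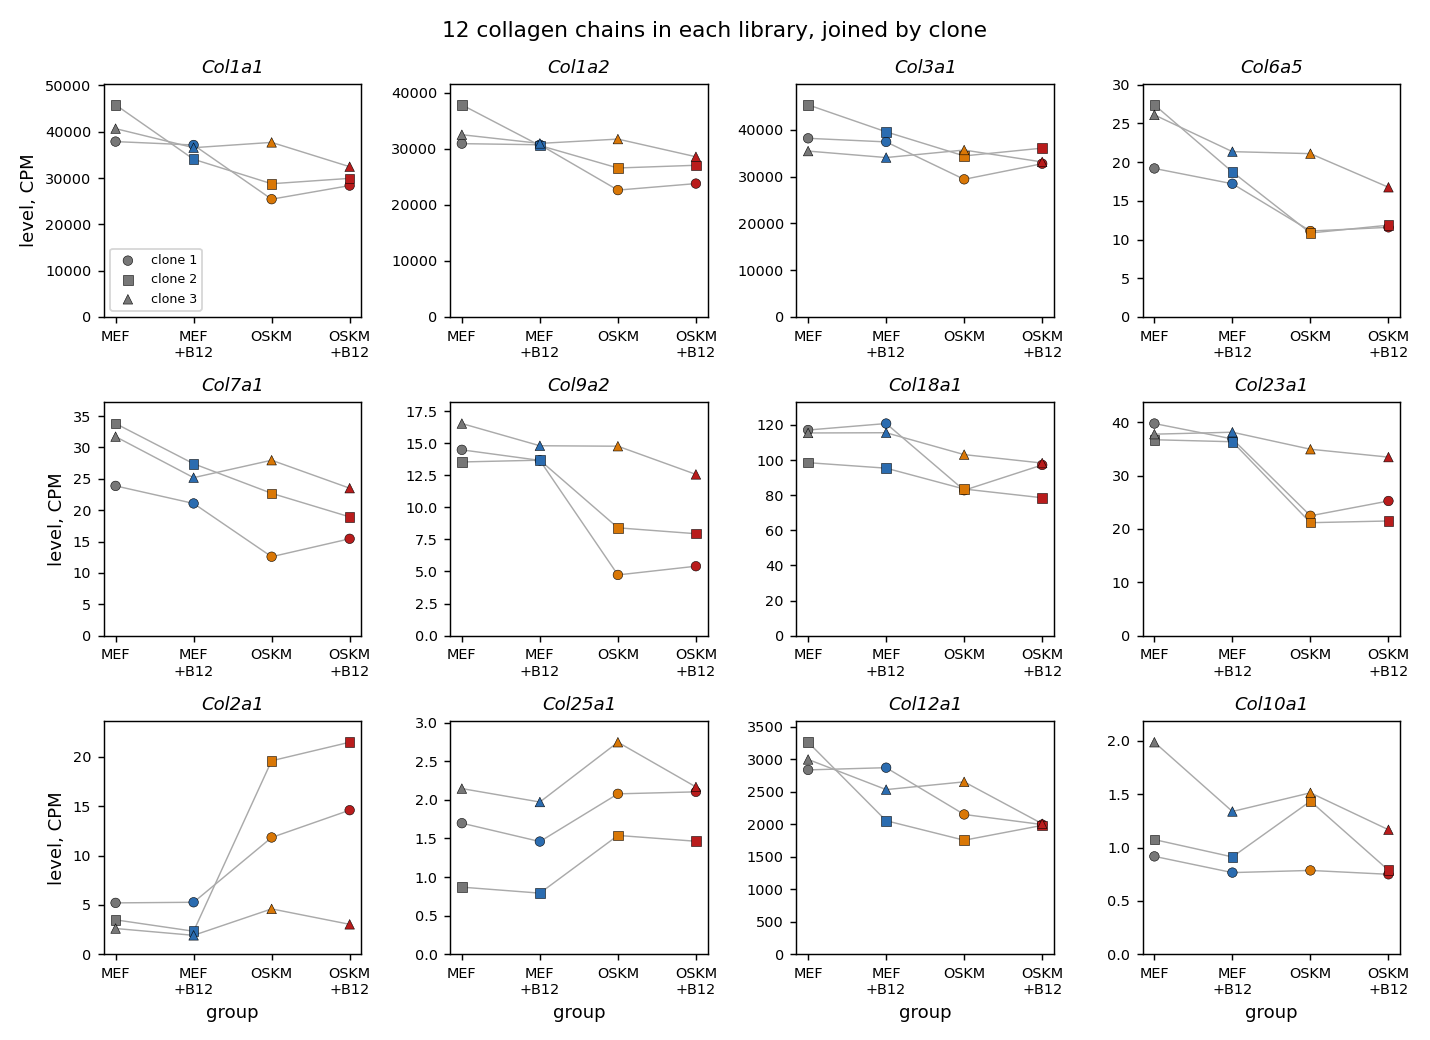
Level in CPM of 12 chains in each library, with grey lines joining the 4 libraries of a clone (circle, square and triangle for clones 1, 2 and 3) and every axis starting at 0. Col9a2 and Col23a1 are low in OSKM and OSKM+B12 of clones 1 and 2 and near the uninduced level in clone 3, and Col2a1 is high in the same 4 libraries.

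Whether the response to induction differed between embryos was tested directly, with the pairs without and with B12 of each clone as its 2 values. Of the 43 chains 3 passed, against 2.15% of all genes, while DESeq2 called 8 (3.13% of all genes). In edgeR 18 chains had an unadjusted p under 0.05, and the matching count over all genes is not given here. Col9a2 differed most (adjusted p = 0.0065 in edgeR), with log2 differences of -1.61, -0.69 and -0.16 in clones 1, 2 and 3 without B12 and -1.33, -0.78 and -0.24 with B12. Col23a1 had -0.82, -0.79 and -0.11 without B12 and -0.55, -0.76 and -0.19 with B12 (adjusted p = 0.015). Col2a1 had 1.18, 2.48 and 0.81 without B12 and 1.46, 3.18 and 0.65 with B12 (adjusted p = 0.018). In all 3 genes clone 3 had the smallest change, and clone 1 had the largest in Col9a2 but clone 2 in Col2a1. For the type I chains the difference between clones did not pass (adjusted p = 0.39 for Col1a1 and 0.24 for Col1a2 in edgeR). Without clone 3 none passed in edgeR, and 0 of all genes did. In that fit 8 chains had an unadjusted p under 0.05, and the matching count over all genes is not given here either. Without clone 2 only Col9a2 passed (1.01% of all genes). Without clone 1 or without the OSKM library of clone 1 7 and 8 chains passed, these 3 among them (3.79% and 4.30% of all genes). The clones also differ in title year, so the embryo and the year of clone 1 cannot be told apart.

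B12 was accompanied by slightly lower collagen levels, but no chain passed the test. In uninduced cells 40 of the 43 chains were lower in MEF+B12 than in MEF, with a median log2 fold change of -0.16 against -0.015 over all genes. In edgeR 0 passed (1.38% of all genes). Before adjustment, p was below 0.05 for 7 chains and for 1972 of the 19174 genes tested. DESeq2 called 0 (2.40% of all genes). It had 13 chains at an unadjusted p under 0.05, and its matching count over all genes is not given here. In induced cells 28 of the 43 were lower, with a median of -0.022 against -0.0070 over all genes. In edgeR 0 passed (1.06% of all genes), and 1 chain and 1883 of all genes had an unadjusted p under 0.05. DESeq2 called 0 (0 at an unadjusted p under 0.05, 2.01% of all genes). Averaged over both states 39 of the 43 were lower, with a median of -0.10 against -0.013, and 55.1% of all genes were lower. In edgeR 0 passed (3.84% of all genes), and 9 chains and 2964 of all genes had an unadjusted p under 0.05. DESeq2 called 1 (4.90% of all genes), Col8a1, a short chain of vessel walls and cornea (-0.12 ± 0.038 and adjusted p = 0.13 in edgeR). Lower values in all 6 B12 pairs were seen for 5 chains (7.64% of all genes). The MEF libraries enter both this comparison and that of induction without B12.

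The clones did not move alike with B12. The median difference over the 43 chains, averaged over states, was 0.032 in clone 1, with 15 chains lower, -0.15 in clone 2, with 37 lower, and -0.15 in clone 3, with 42 lower. In induced cells the medians were 0.072, 0.022 and -0.19, and clone 3 was lower in 41 of the 43 chains there. The largest falls at or above 1 CPM were those of Col10a1, the chain of hypertrophic cartilage, with -0.41 ± 0.13 (adjusted p = 0.15 in edgeR), Col12a1 with -0.21 ± 0.092 and Col6a5 with -0.21 ± 0.11, which did not pass either (adjusted p = 0.3 and 0.39). Col10a1 was at 0.918, 1.08 and 1.99 CPM in MEF and 0.766, 0.913 and 1.34 CPM in MEF+B12. It was at 0.786, 1.44 and 1.51 CPM in OSKM and 0.750, 0.788 and 1.17 CPM in OSKM+B12, lower with B12 in each of the 6 pairs, in ranges that overlap between embryos. The highest positive values were those of Col17a1, a chain of epidermal hemidesmosomes, with 0.097 ± 0.16, Col28a1, of peripheral nerve, with 0.013 ± 0.085, and Col18a1 with 0.011 ± 0.049, and none passed (adjusted p = 0.82, 0.96 and 0.94 in edgeR). Whether B12 acted differently in the 2 states was tested as an interaction, in which 0 chains passed in edgeR and in DESeq2, with 0 at an unadjusted p under 0.05 and 0% of all genes called. The interaction was positive for 36 of the 43, with a median of 0.15. Of the 19174 genes tested 9828 were positive, with a median of 0.0034. By clone the median over the chains was 0.20, 0.22 and -0.072, and in clone 3 33 of the 43 were negative.

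Markers of macrophages rose with B12. The chains, averaged over states, were mostly lower with B12 in clones 2 and 3. In clone 1 only 15 of the 43 were lower, and no chain passed in edgeR. Of 11 macrophage markers 10 rose with B12 averaged over states (3.84% of all genes passed). Among them were Mrc1, a mannose receptor (0.86 ± 0.076, adjusted p = 0.00021 in edgeR), and Csf1r, the receptor of the macrophage growth factor (0.71 ± 0.083, adjusted p = 0.00077). All 11 passed with the libraries of a clone summed, a fit whose share of all genes is not given here. The summed level of the 11 markers was 1200.5 to 2333 CPM in MEF and 1822 to 3101 CPM in MEF+B12, and 1218 to 2141 CPM in OSKM and 1868 to 2488 CPM in OSKM+B12. Of 10 fibroblast markers, which mark the labelled cell type, all were detected, with a summed level of 6664 to 8114 CPM over the 12 libraries. With B12 averaged over states 9 of the 10 were lower and 1 passed (Prrx1, lower). With the libraries of a clone summed, Prrx1 and Thy1 passed. The part of macrophage content in the collagen values was not tested. With induction averaged over B12, 3 of the 11 macrophage markers fell (Adgre1, Csf1r and Aif1) and Itgam rose. Of the 10 fibroblast markers Pdgfra and Pdgfrb fell and Fap rose. Epithelial markers rose for 3 of 4 tested (Cdh1, Krt8 and Krt14), with a summed level of 0.838 to 1.79 CPM in the uninduced and 1.06 to 13.4 CPM in the induced libraries, and Epcam, Cldn4, Esrp1 and Grhl2 were below the filter. Mesothelial markers rose for 3 of 5 tested, endothelial ones for 2 of 4, bone ones for 2 of 6 and skeletal muscle ones for 0 of 4. Of 7 neural and Schwann cell markers tested 1 rose and 1 fell. The bone markers that rose, Bglap and Bglap2, had means of only 0.125 and 0.211 CPM, and Bglap2 was not higher in clone 3 (-0.13). Below the filter were Pecam1, Tie1, Emcn and Cldn5 (endothelial) and Sp7 and Dmp1 (bone). So were Myod1, Myog, Ckm and Myh3 (muscle) and Elavl3 (neural). The part of these cell types in the collagen differences was not tested.

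Genes that make, export and bind collagen were read in the same averaged induction comparison, in which 5.26% of all genes fell and 4.46% rose. None of the genes in these lists or in the cell type marker lists passed for induction when the libraries of a clone were summed, as 0.0250% of all genes did. Of 17 genes of chain modification and folding 14 were lower and 1 fell past the threshold, Serpinh1, the collagen chaperone Hsp47 (-0.16 ± 0.046, adjusted p = 0.049 in edgeR). An unadjusted p under 0.05 was seen for 11 of the 17 and for 5144 of the 19174 genes tested. The prolyl and lysyl hydroxylases, which act on the newly made chains, had values between -0.16 (Plod3) and 0.19 (P3h2) and did not pass. Of 16 genes of secretion, propeptide removal and cross-linking 6 fell and 1 rose. Those that fell were the N-propeptidases Adamts2 and Adamts14 and the lysyl oxidase family members Loxl1, Loxl2, Loxl3 and Loxl4, led by Loxl4 (-0.35 ± 0.070, adjusted p = 0.022 in edgeR) and Loxl3 (-0.27 ± 0.059, adjusted p = 0.026). Pcolce2, an enhancer of C-propeptide removal, rose (0.50 ± 0.11, adjusted p = 0.027 in edgeR). Of 9 tested receptors Itga11, the subunit of a fibrillar collagen integrin of fibroblasts, fell (-0.46 ± 0.084, adjusted p = 0.02 in edgeR). Of 12 fibril binding proteoglycans and proteins 2 fell, Fmod (fibromodulin; -0.41 ± 0.090, adjusted p = 0.026 in edgeR) and Thbs1 (thrombospondin 1; -0.24 ± 0.055, adjusted p = 0.027). The small proteoglycans decorin and lumican had values near 0, with 0.088 ± 0.058 for Dcn and 0.049 ± 0.041 for Lum. The medians of these lists were -0.082, -0.064, -0.10 and 0.051, against -0.19 for the collagen chains and -0.0028 for all genes. With B12 averaged over states 0 genes of the modification, secretion and fibril binding lists passed in edgeR. An unadjusted p under 0.05 was seen for 1, 4 and 4 of them and for 2964 of the 19174 genes. With the libraries of a clone summed, 0, 1 (Lox) and 2 (Fn1 and Thbs1) passed. Among the receptors Lair1, an inhibitory receptor of immune cells, rose (0.64 ± 0.073, adjusted p = 0.0007 in edgeR). Itga1 (-0.17 ± 0.050) and Itga11 (-0.14 ± 0.084) were lower and did not pass. In the summed fit Itga1, Itga11 and Lair1 passed, and the share of all genes in that fit is not given here.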

How the data were processed

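Stranded poly(A) libraries were made, and the authors aligned read pairs to GRCm38 (mm10) with STAR (version 2.5.2 per the submitters' processing notes), then counted them per gene with featureCounts. The table they deposited holds raw counts, one row per gene, with flow cells added together. How multi-mapping reads were handled is not given in the sources used here. Symbols and coordinates (1-based) are from GENCODE M21, which matched 55480 of 55573 identifiers. CPM were computed here from library totals scaled by TMM factors (0.934 to 1.06), with a prior count of 2 on the log2 scale.

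The 12 libraries (56971244 to 79236795 counts) were fitted together with edgeR 4.0.16 (quasi-likelihood, filterByExpr by group, 19174 genes, clone and group as terms, R 4.3.3). p-values were adjusted over all genes tested by Benjamini-Hochberg, with a threshold of 0.05, and fold changes are given ± SE. A further fit with clone by state terms tested whether induction differed between clones. Clone entered as a block, since every embryo contributed to all 4 groups (the pairing comes from the labels). Libraries of a clone deviated together, with correlations of 0.270 to 0.687 over 18 pairs. The scripts of the averaged comparisons were checked on simulated data without differences between embryos, which cannot check the clone terms. The block takes out differences in level between the 3 embryos, so p-values rest on the spread left among the 12 libraries. The averaged comparisons count pairs of the same embryo as separate values. The test of differences between clones uses the pairs of an embryo without and with B12 as its replicates. Counts carry no molecular identifiers.

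The collagen genes, gene lists and tests were chosen with earlier results of these data known. Members named were those past the threshold in any comparison (at most 12, by smallest adjusted p), the 8 highest per kb, and the 3 largest rises and 3 largest falls at 1 CPM or more for induction and for B12, each averaged. Alternatives were DESeq2 1.42.0, other scalings and filters, no clone block, each clone or the OSKM library of clone 1 left out and, added after seeing the data, libraries summed per clone. Doxycycline is given as in the labels.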

Additional observations from a re-analysis of the deposited data

Results flagged for a closer look

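The response to induction differed between clones in 3 chains by the F test of edgeR, with adjusted p = 0.00654 for Col9a2, 0.0150 for Col23a1 and 0.0178 for Col2a1. Averaged over B12, the log2 differences in clones 1, 2 and 3 were -1.47, -0.73 and -0.20 for Col9a2, -0.68, -0.78 and -0.15 for Col23a1 and 1.32, 2.83 and 0.73 for Col2a1, with the smallest size in clone 3 each time. DESeq2 called these 3 and 5 others (3.13% of all genes), Col4a5, Col5a2, Col6a5, Col16a1 and Col28a1. Pou5f1 was also lowest in clone 3, at 19.3, 18.5 and 2.86 CPM in OSKM of clones 1, 2 and 3, while Klf4 was at 121, 123 and 119 CPM. Clone 2 had the larger change in Col23a1 and Col2a1, and the part of the factors in these differences was not tested.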

How the results depend on the processing

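Counts of collagen chains past the threshold depended on the test, the filter and the clones. For induction without B12 DESeq2 called 11 and edgeR without a filter 15, against 0, and leaving out a clone or the OSKM library of clone 1 gave 0 to 16. Over all genes these counts were 492, 681 and 1 to 1322, against 14. For induction with B12 the chain counts were 4, 5 and 0 to 4, against 0. Over all genes DESeq2 called 420 and the unfiltered fit 646, against 20, and the counts on leaving out are not given here. For induction averaged over B12 (14) they were 0 to 21 when a library or clone was left out, 0 without the replicate block and 0 with the libraries of a clone summed, while the count over all genes went from 1865 to between 3 and 3056, to 0 and to 5. For the difference between clones (3) DESeq2 called 8, the unfiltered fit 15, and leaving out gave 0 to 8. Of all genes 2.15% passed, with 3.13% in DESeq2 and 0% to 4.30% on leaving out, and the share in the unfiltered fit is not given here. For B12 in MEF the unfiltered fit called 1 (Col6a3), and for B12 averaged DESeq2 called 1 (Col8a1), against 0 each. Without the block no comparison gave a call among the chains. The cause was not tested. Counts for B12 in OSKM and the interaction stayed at 0 under the alternatives run for them, which did not include summed libraries. Of 462 single values under alternatives for the named chains, 373 kept direction and side of the threshold, 64 lost the call, 10 gained one and 15 changed sign. With each clone or library left out, the values that changed sign ran from -0.018 to 0.58 for Col4a4, -0.22 to 0.0030 for Col10a1, -0.41 to 0.058 for Col17a1 and -0.28 to 0.018 for Col28a1 in averaged induction. In averaged B12 they ran from -0.21 to 0.014 for Col9a2, -0.048 to 0.032 for Col23a1, -0.29 to 0.029 for Col2a1, -0.048 to 0.048 for Col18a1, -0.074 to 0.013 for Col3a1, -0.018 to 0.073 for Col28a1 and -0.10 to 0.037 for Col16a1. With library totals in place of TMM, averaged B12 gave 0.023 for Col23a1 and 0.0027 for Col16a1. None of these values had passed the threshold. Chains with few counts, such as Col4a3, Col13a1 and Col19a1, allow only large changes to be seen.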

Other observations

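Some chains differed more between embryos than between treatments. Averaged over the 4 libraries of clones 1, 2 and 3, Col8a1 was at 301, 459 and 596 CPM and Col8a2, the other chain of type VIII collagen, at 58.1, 70.2 and 131 CPM. Col9a1, of type IX, was at 0.245, 0.763 and 1.28 CPM and Col11a1, the fibrillar chain that seeds cartilage fibrils, at 388, 524 and 644 CPM. All of these were lowest in clone 1 and highest in clone 3. Col15a1, of vessel and muscle basement membranes, was at 97.6, 46.2 and 51.3 CPM and Col26a1 at 26.7, 11.04 and 15.2 CPM, highest in clone 1. Col28a1 was at 47.2, 66.6 and 47.8 CPM, highest in clone 2. These genes were picked after their values were seen, and with 1 embryo per clone the differences were not tested.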
